A study of Mus musculus with 42 samples.

Results

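The 10 genes described here, *Atf4*, *Ddit3*, *Xbp1*, *Trib3*, *Asns*, *Chac1*, *Sesn2*, *Hspa5*, *Herpud1* and *Dnajb9*, belong to the integrated stress response and the unfolded protein response. They were chosen by name, with earlier results of these data known. Every probe set annotated to 1 of them alone was taken. This gave 22 of the 45037 probe sets tested and 10 of the 18193 genes with a probe set of their own. RNA had been measured on 42 Affymetrix mouse arrays from *Fmr1*KO mice, which lack a working copy of the gene for the fragile X protein FMRP, and from WT mice, all on the C57BL/6 background and untreated. Each genotype was sampled in 4 systems, namely hippocampal and cortical neuronal cultures kept for 14 days in vitro, and primary hippocampus and primary cortex of embryos at 17 to 18 days post conception. There were 5 KO and 5 WT arrays in each system, except for primary hippocampus with 6 and 6. Per the labels each sample was pooled from littermates. Its mouse ID, which recurs across systems, is called the litter here, although the labels do not say that it names one. KO and WT shared no ID, and the pairs of KO and WT that the study prepared on the same day for its cultures are not named in the labels, so KO and WT were compared unpaired.

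In the integrated stress response, several kinases that sense amino acid shortage, misfolded protein, viral RNA or lack of heme phosphorylate the translation factor eIF2α, which lowers protein synthesis in general and raises translation of ATF4, a transcription factor for genes of amino acid supply and of cell death. In the unfolded protein response, the sensors PERK, ATF6 and IRE1 of the endoplasmic reticulum (ER) act through ATF4, through cleaved ATF6 and through spliced *Xbp1* mRNA, and raise chaperones and the machinery that removes misfolded proteins. ATF4 protein, eIF2α phosphorylation and *Xbp1* splicing were not measured on these arrays, so the values are mRNA levels and no readout of pathway activity.

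The promoters of 4 genes are shown because they hold the letters of a known stress element, which stands in capitals. The windows are from RefSeq on GRCm38.p6 and run 5′ to 3′ on the strand of the gene, from 250 bases before to 50 bases after its start. The *Asns* window (chr6:7693160-7693459, minus strand) and the *Chac1* window (chr2:119350992-119351291, plus strand) hold TGATGNAA, the C/EBP-ATF response element (CARE) that ATF4 is known to bind. The *Hspa5* window (chr2:34771840-34772139, plus strand) holds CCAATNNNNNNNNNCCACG, the ER stress response element (ERSE), and the *Herpud1* window (chr8:94386179-94386478, plus strand) holds both a CARE and the related element ERSE-II.
Asns: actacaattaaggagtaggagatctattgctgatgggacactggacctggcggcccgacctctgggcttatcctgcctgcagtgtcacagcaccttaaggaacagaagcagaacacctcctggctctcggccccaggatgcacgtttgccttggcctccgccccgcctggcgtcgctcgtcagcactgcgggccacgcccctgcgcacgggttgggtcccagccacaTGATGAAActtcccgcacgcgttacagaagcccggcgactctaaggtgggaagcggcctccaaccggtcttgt
Chac1: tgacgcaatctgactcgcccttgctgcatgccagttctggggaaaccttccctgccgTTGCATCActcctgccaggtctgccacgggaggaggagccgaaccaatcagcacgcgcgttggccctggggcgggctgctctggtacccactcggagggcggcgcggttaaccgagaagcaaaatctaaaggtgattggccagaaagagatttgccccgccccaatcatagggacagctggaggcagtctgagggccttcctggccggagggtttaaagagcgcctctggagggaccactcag
Hspa5: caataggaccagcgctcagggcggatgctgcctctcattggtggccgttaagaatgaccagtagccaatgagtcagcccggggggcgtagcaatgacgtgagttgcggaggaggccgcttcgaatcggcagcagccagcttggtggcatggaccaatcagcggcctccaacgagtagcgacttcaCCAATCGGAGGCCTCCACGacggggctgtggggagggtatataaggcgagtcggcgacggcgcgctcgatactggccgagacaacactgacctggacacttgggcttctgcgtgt
Herpud1: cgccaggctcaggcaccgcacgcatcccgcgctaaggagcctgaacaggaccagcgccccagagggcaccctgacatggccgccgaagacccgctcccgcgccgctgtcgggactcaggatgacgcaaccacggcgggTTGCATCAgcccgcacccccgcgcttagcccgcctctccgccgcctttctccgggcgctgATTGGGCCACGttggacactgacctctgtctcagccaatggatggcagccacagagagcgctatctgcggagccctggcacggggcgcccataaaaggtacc

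Both strands of all 10 windows were searched for these 3 elements and for TGACGTCA (CRE) and TGACGTGG (UPRE). A CARE was found in *Trib3*, *Asns*, *Chac1* and *Herpud1*, starting at base 15 after the gene start in *Trib3* and at bases -23, -193 and -112 from it in the others. It stood on the gene's own strand in *Asns* and on the opposite strand in the other 3. These are 4 of 10 windows, against 3.97% of the 32851 promoter windows of the same length. The ERSE of *Hspa5* started at base -65 and the ERSE-II of *Herpud1* at base -52, and these elements were found in 0.119% and 0.0365% of all windows. CRE and UPRE letters were in none of the 10 windows, against 1.79% and 0.676% of all. The genes were chosen as members of these responses and the elements as known stress elements, so these counts are no test of enrichment. A match of letters is a description, not a site in use.

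The arrays were alike in their distribution, with medians of 5.40 to 5.56 on the log2 scale, and no arrays were identical. *Fmr1* (1423369_at) was lower in KO in each system, by -0.94 and -0.90 in the hippocampal and cortical cultures and by -0.93 and -0.99 in the tissues (log2, highest limma adjusted p = 2.60e-06). Cultures differed from tissue in their cell type markers. The 6 neuronal markers (among them *Map2* and *Syn1*) were each higher in culture in both regions, with a mean log2 level per array of 10.85 to 11.82 in culture and 9.24 to 9.86 in tissue. The 6 astrocyte markers were likewise all higher in culture, whereas the 6 microglial markers were all lower, and their mean in culture, 4.43 to 4.80, lay below the background level of 5.16. The 4 cycling cell markers measured were all lower in culture, with a mean per array of 6.28 to 8.92 against 9.11 to 10.21 in tissue. The part of these markers in the differences below was not tested. In such bulk samples fewer cells of a type and less RNA per cell cannot be told apart, and neither can time in culture and developmental age.

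Most of the 10 genes were higher in culture than in the tissue of the same region. Averaged over KO and WT, 7 of 10 were higher in hippocampal culture than in primary hippocampus (adjusted p under 0.05) and 9 of 10 in cortical culture than in primary cortex, and none was lower. The backgrounds were wide, since 35.9% of all genes were higher and 36.2% lower in hippocampal culture, and 35.3% and 35.9% in cortical culture. The median log2 difference of the 10 genes was 0.75 in hippocampus and 0.85 in cortex, beside 0.018 and 0.010 over all genes. Every culture array lay above every tissue array for 5 of the 10 genes in hippocampus (*Asns*, *Chac1*, *Sesn2*, *Herpud1* and *Dnajb9*) and for 6 in cortex (*Asns*, *Chac1*, *Sesn2*, *Herpud1*, *Ddit3* and *Atf4*), against 15% and 15.3% of all genes.

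**Figure D1:**
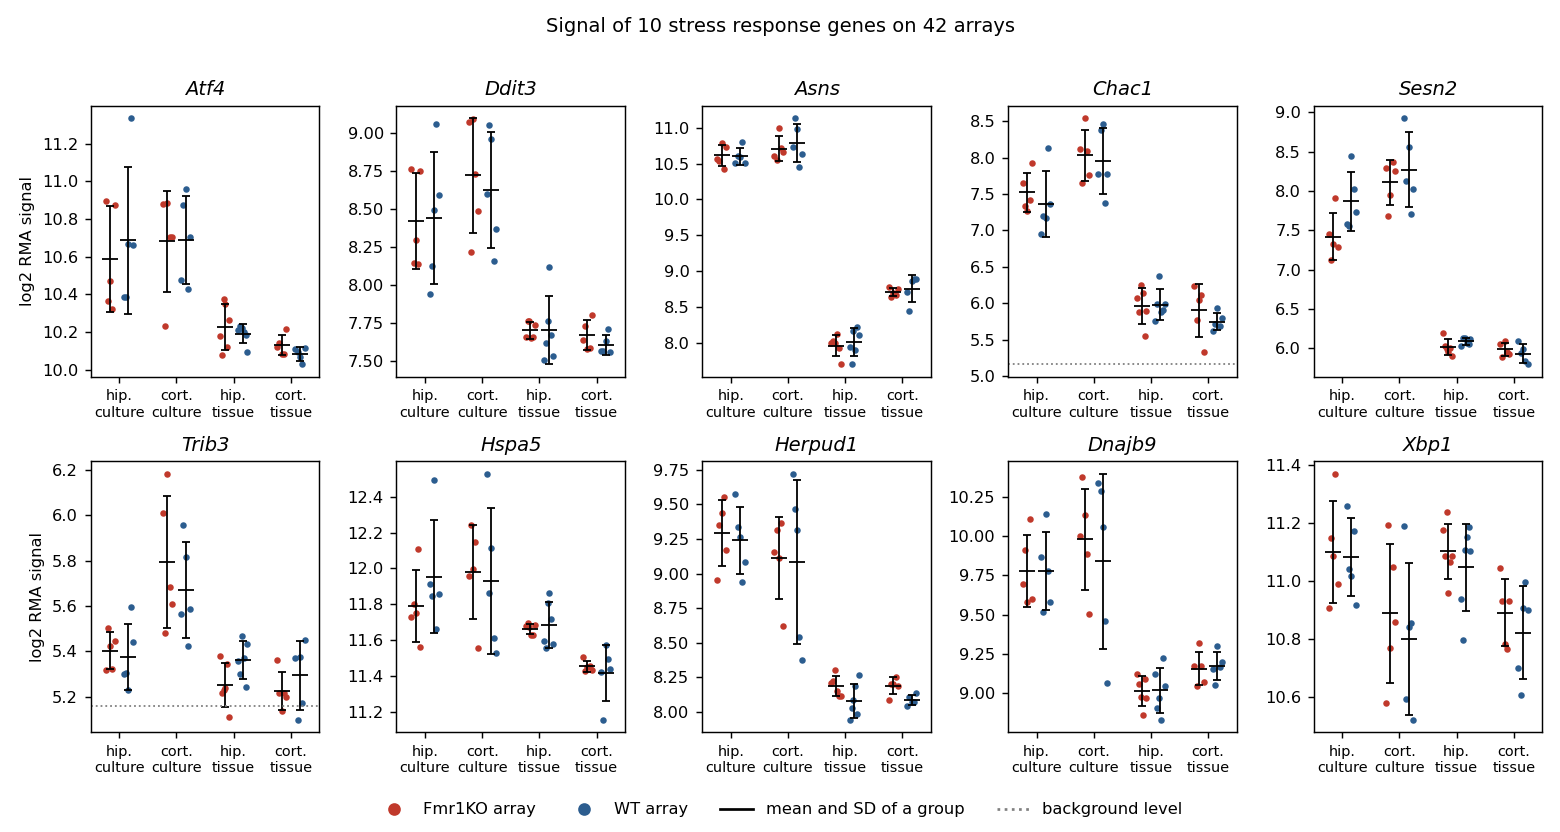
Log2 RMA level of each of the 10 genes (1 panel per gene, y axis in log2 units) on every array of the 4 systems (x axis), with KO arrays in red, WT arrays in blue, the mean and SD of each group in black and the background level dotted where it falls in the panel. The culture arrays of *Asns*, *Chac1*, *Sesn2* and *Herpud1* all sit above the tissue arrays of their region, whereas those of *Xbp1* overlap with tissue, and KO and WT points are mixed.

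Of the genes downstream of ATF4, *Asns* (1451095_at, chromosome 6, 7675165 to 7693209, minus strand), which encodes asparagine synthetase, had the largest difference in hippocampus, and *Sesn2* that in cortex. The *Asns* lowest, median and highest log2 levels were 10.43, 10.58 and 10.80 in hippocampal culture and 7.70, 8.00 and 8.23 in primary hippocampus. In cortex they were 10.46, 10.69 and 11.13 in culture and 8.44, 8.73 and 8.90 in tissue. No culture array came near the tissue arrays, and the tissues themselves stood apart, with all 12 hippocampal arrays below all 10 cortical arrays. The difference between culture and tissue was 2.62 ± 0.07 (SE, 6.15-fold, limma adjusted p = 4.75e-28) in hippocampus and 2.02 ± 0.08 (4.05-fold, adjusted p = 7.36e-24) in cortex. The second *Asns* probe set gave 2.50 and 1.85.

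*Sesn2* (1425139_at, chromosome 4, 132492804 to 132510456, minus strand) encodes Sestrin 2, a stress-induced protein that senses leucine and restrains mTORC1. It ranged from 7.12 to 8.45 (median 7.57) in hippocampal culture and from 5.91 to 6.19 (median 6.05) in primary hippocampus. In cortex it ranged from 7.69 to 8.92 (median 8.19) in culture and from 5.79 to 6.09 (median 5.95) in tissue. It was thus spread over more than a log2 unit among culture arrays and within a narrow band in tissue, without overlap. The differences were 1.59 ± 0.11 (3.01-fold, limma adjusted p = 2.81e-16) in hippocampus and 2.23 ± 0.11 (4.70-fold, adjusted p = 4.60e-20) in cortex, and the second probe set gave 1.24 and 1.84. *Chac1* (1451382_at, chromosome 2, 119351242 to 119354326, plus strand), whose product degrades glutathione, ranged from 6.96 to 8.13 (median 7.35) in hippocampal culture, and from 5.55 to 6.38 (median 5.94) in primary hippocampus. In cortex it ranged from 7.37 to 8.54 (median 7.93) in culture and from 5.33 to 6.24 (median 5.78) in tissue. These ranges did not overlap either, and the differences were 1.47 ± 0.13 (2.77-fold, limma adjusted p = 1.32e-12) and 2.17 ± 0.14 (4.50-fold, adjusted p = 7.27e-17).

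*Trib3* (1426065_a_at, chromosome 2, 152337425 to 152344060, minus strand) encodes a pseudokinase that is induced by ATF4 and CHOP. Its log2 levels were close to background in all systems, at 5.23 to 5.59 (median 5.37) in hippocampal culture, 5.11 to 5.47 (median 5.32) in primary hippocampus, 5.42 to 6.18 (median 5.65) in cortical culture and 5.10 to 5.45 (median 5.22) in primary cortex. The cortical cultures were higher than their tissue by 0.47 (1.39-fold, limma adjusted p = 1.70e-07), with a small overlap. In hippocampus the ranges overlapped for most arrays and the difference was 0.08 (adjusted p = 0.290). The second probe set (1456225_x_at) gave 0.24 (adjusted p = 0.00256) and 0.68, at means below background in all systems.

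Of the transcription factors, *Atf4* (1448135_at, chromosome 15, 80255184 to 80257545, plus strand) ranged from 10.32 to 11.33 (median 10.57) in hippocampal culture and from 10.08 to 10.37 (median 10.21) in primary hippocampus, where 8 of the 10 culture arrays lay above all tissue arrays. In cortex it ranged from 10.23 to 10.96 (median 10.71) in culture and from 10.03 to 10.22 (median 10.10) in tissue, without overlap. The differences were 0.43 ± 0.09 (1.34-fold, limma adjusted p = 5.32e-05) and 0.58 (1.49-fold, adjusted p = 7.76e-07). The direction rests on this probe set, since 1438992_x_at, whose suffix marks probes that may also match other transcripts, was lower in culture by -0.50 (adjusted p = 3.02e-05) and -0.69 (adjusted p = 2.35e-07), and the other *Atf4* probe set (1439258_at) was below background.

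*Ddit3* (1417516_at, chromosome 10, 127290793 to 127296291, plus strand) encodes CHOP, a transcription factor tied to cell death under lasting ER stress. It ranged from 7.94 to 9.06 (median 8.39) in hippocampal culture and from 7.50 to 8.11 (median 7.66) in primary hippocampus, with 9 of the 10 culture arrays above all tissue arrays. In cortex it ranged from 8.15 to 9.09 (median 8.67) in culture and from 7.56 to 7.80 (median 7.60) in tissue, without overlap. The differences were 0.73 ± 0.11 (1.66-fold, limma adjusted p = 6.01e-07) and 1.04 ± 0.12 (2.05-fold, adjusted p = 8.27e-10). A second probe set (1443897_at) gave 0.05 (adjusted p = 0.714) in hippocampus and 0.56 (adjusted p = 0.000266) in cortex.

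*Xbp1* (1437223_s_at, chromosome 11, 5520641 to 5525993, plus strand), whose mRNA is spliced by IRE1, did not differ detectably between culture and tissue. It ranged from 10.91 to 11.37 (median 11.07) in hippocampal culture and from 10.80 to 11.24 (median 11.10) in primary hippocampus, and from 10.52 to 11.19 (median 10.85) in cortical culture and 10.61 to 11.05 (median 10.90) in primary cortex. The ranges overlapped in both regions, and the differences were 0.02 (95% interval -0.13 to 0.16) and -0.01 (-0.17 to 0.14).

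Of the 3 genes acting in the ER, *Herpud1* (1448185_at, chromosome 8, 94386429 to 94395371, plus strand), a membrane protein of ER-associated degradation, had the largest difference in both regions. It ranged from 8.94 to 9.58 (median 9.30) in hippocampal culture and from 7.94 to 8.30 (median 8.13) in primary hippocampus, and from 8.37 to 9.72 (median 9.23) in cortical culture and 8.04 to 8.26 (median 8.12) in primary cortex. There was no overlap in either region, and the differences were 1.13 ± 0.11 (2.19-fold, limma adjusted p = 6.11e-12) and 0.96 ± 0.11 (1.95-fold, adjusted p = 1.25e-09). *Dnajb9* (1417191_at, chromosome 12, 44205897 to 44210068, minus strand), which encodes the BiP co-chaperone ERdj4, ranged from 9.52 to 10.14 (median 9.73) in hippocampal culture and from 8.83 to 9.22 (median 9.01) in primary hippocampus. In cortex it ranged from 9.06 to 10.38 (median 10.03) in culture and from 9.04 to 9.32 (median 9.17) in tissue, with 9 of 10 culture arrays above all tissue arrays. Its differences were 0.76 ± 0.11 (1.70-fold, limma adjusted p = 8.26e-08) and 0.75 (1.68-fold, adjusted p = 3.18e-07).

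*Hspa5* (1416064_a_at, chromosome 2, 34772090 to 34776529, plus strand) encodes BiP, the main Hsp70 chaperone of the ER. It ranged from 11.56 to 12.49 (median 11.82) in hippocampal culture and from 11.56 to 11.86 (median 11.68) in primary hippocampus, with 3 of 10 culture arrays above all tissue arrays. In cortex it ranged from 11.53 to 12.53 (median 11.98) in culture and from 11.16 to 11.57 (median 11.45) in tissue, with 8 of 10 above. The difference in cortex was 0.52 (1.43-fold, limma adjusted p = 1.13e-05), whereas that in hippocampus, 0.20 (1.15-fold), missed the threshold at adjusted p = 0.0576. The latter passed with the litter as a random replicate block (limma adjusted p = 0.0443), with only the arrays compared (0.0295) and with array weights (0.0362). It also passed in 3 fits that left out 1 array, but not after median centring or a second quantile normalization. The other *Hspa5* probe sets disagreed, with 0.42 and 0.96 for 1427464_s_at and -0.47 and -0.23 for 1447824_x_at.

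**Figure D2:**
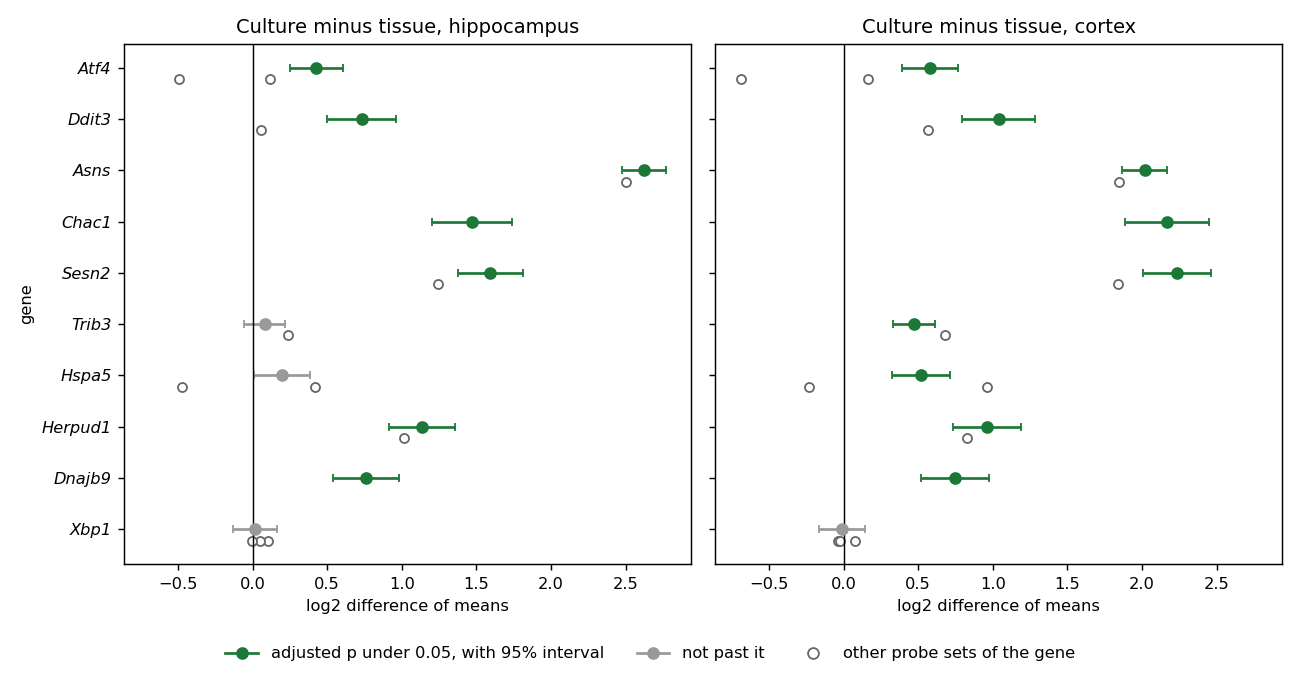
Log2 difference between culture and tissue (x axis) for each gene (y axis) in hippocampus and cortex, with the 95% interval from limma and a line at 0. *Asns* lies at 2.62 and 2.02, and the intervals that reach 0 are those of *Xbp1* in both regions and of *Trib3* in hippocampus.

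The size of the difference between culture and tissue depended on the region for 4 of the 10 genes (adjusted p under 0.05 for the difference itself), against 32% of all genes. For *Asns* it was larger in hippocampus, by 0.60 ± 0.10 (limma adjusted p = 2.21e-05). It was smaller in hippocampus for *Sesn2* (-0.64 ± 0.16, adjusted p = 0.00154), *Chac1* (-0.70 ± 0.19, adjusted p = 0.00507) and *Trib3* (-0.39 ± 0.10, adjusted p = 0.00178). These 4 calls held when any 1 array was left out. *Hspa5* (-0.32) did not pass in the main fit, but passed in 5 fits that left out 1 array and with array weights (limma adjusted p = 0.0192). With the probe set of the smallest p per gene, *Hspa5* (-0.54, limma adjusted p = 0.00484) and *Ddit3* (-0.51, adjusted p = 0.0328) passed. The second probe sets of *Asns*, *Sesn2* and *Trib3* gave 0.66, -0.60 and -0.44. For *Asns*, primary hippocampus was lower than primary cortex by -0.74 ± 0.07 (1.68-fold, adjusted p = 8.93e-11), and the cultures differed by -0.14, which did not pass the threshold. For *Sesn2* (-0.55, adjusted p = 0.000245), *Chac1* (-0.55, adjusted p = 0.00258) and *Trib3* (-0.34, adjusted p = 0.000209), hippocampal cultures were lower than cortical cultures, and the tissues differed by 0.09, 0.15 and 0.05, none of which passed.

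Between the tissues, *Xbp1* was also higher in hippocampus (0.22, limma adjusted p = 0.0198), as was *Hspa5* (0.24, adjusted p = 0.0447), a call that was lost in 17 of the 22 fits that left out 1 tissue array. Thus 2 genes were higher and 1 lower in primary hippocampus, against 19.7% and 16.7% of all genes. Between the cultures, *Xbp1* was higher in hippocampus (0.25, adjusted p = 0.0143), so that 1 gene was higher and 3 were lower, against 14.7% and 13.5%. The *Xbp1* call was lost with only the culture arrays in the fit (adjusted p = 0.0620). The cultures also differed in their cell type markers. All 5 oligodendrocyte lineage markers measured were lower in hippocampal culture, with a mean log2 level per array of 6.31 to 6.77 against 7.77 to 9.10 in cortical culture, and so were all 4 cycling markers. The part of this in the differences between cultures was not tested.

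Other genes of both responses moved in either direction. Of 97 such genes listed, 92 had a probe set of their own, and 53 of these were higher and 21 lower in hippocampal culture than in tissue (median 0.26), and 60 and 11 in cortical culture (median 0.44). Over all genes 35.9% were higher and 36.2% lower in hippocampal culture, and 35.3% and 35.9% in cortical culture, and the counts of each group below are to be read against these shares. In both regions 47 were higher and 9 lower, and 4 moved in opposite directions. Of the 24 other ATF4 targets measured, 11 were higher and 7 lower in hippocampus and 18 and 3 in cortex. Among them were *Slc3a2*, a subunit of amino acid exchangers (1.42 and 1.74), and the transcription factor *Cebpb* (2.00 and 2.32), whereas its relative *Cebpg*, a partner of ATF4, was lower in both regions (-1.67 and -1.56), as was the amino acid transporter *Slc38a2* (-1.41 and -1.16). Of the 13 genes for aminoacyl-tRNA synthesis and export, 7 were higher and 4 lower in hippocampus, and 8 and 1 in cortex, with the alanyl-tRNA synthetase *Aars* at 0.82 and 0.98 and the seryl-tRNA synthetase *Sars* at -0.25 and -0.25.

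Of 20 other ER chaperones and folding enzymes, 13 were higher and 4 lower in hippocampus, and 14 and 0 in cortex. The chaperone *Hyou1* was higher in both (0.51 and 0.70), the oxidase *Ero1b* was at 0.84 in hippocampus and *Calr*, which encodes calreticulin, at 0.80 in cortex. *Pdia6* (-0.54), *Manf* (-0.40) and *Creld2* (-0.63) were lower in hippocampus. Of 18 genes of ER-associated degradation and translocation, 14 were higher and 2 lower in hippocampus and 12 and 2 in cortex, with the ubiquitin ligase *Syvn1* at 0.79 and 0.98, the ER membrane protein *Wfs1* at 2.50 and 4.42, and the translocon subunit *Sec61b* at -0.88 and -0.48. Among 6 genes of cell death, 4 were higher and 1 lower in hippocampus and 4 and 0 in cortex, and *Pmaip1*, which encodes the BH3-only protein NOXA, was at 3.54 and 3.25.

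Of 11 sensors, kinases and phosphatase subunits, 4 were higher and 3 lower in hippocampus and 4 and 5 in cortex. *Atf6* (0.86 and 0.75) and *Ppp1r15a*, which encodes the GADD34 subunit that dephosphorylates eIF2α (0.81 and 1.11), were higher, and *Ern1*, which encodes IRE1α (-0.58 and -0.70), was lower. For comparison, of 10 genes of the cytosolic and mitochondrial heat shock response, 5 were higher and 3 lower in hippocampus and 5 and 2 in cortex. *Hspa1b* (2.92 and 1.67) and *Hspa1a* (2.31 and 1.13) were higher, although these near-identical genes cannot be fully separated by their probes, and the Hsp40 gene *Dnajb1* (-0.59 and -0.52) was lower. Between the cultures, 8 of the 13 genes for aminoacyl-tRNA synthesis and export were lower in hippocampus and none was higher, and 10 of the 24 ATF4 targets were lower and 2 higher, against 13.5% lower and 14.7% higher among all genes. Between the tissues, 11 of those targets were higher in hippocampus and 3 lower, against 19.7% and 16.7% of all genes, with the serine synthesis genes *Psat1* at 1.19, *Phgdh* at 0.84 and *Psph* at 0.65.

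Within their groups, the culture arrays also varied more than the tissue arrays, by the probe set that represents each gene. The ratio of the SD within culture groups to that within tissue groups was 4.51 for *Herpud1*, 4.10 for *Sesn2*, 3.95 for *Atf4*, 3.21 for *Dnajb9*, 2.98 for *Hspa5* and 2.84 for *Ddit3*. It was 1.17 to 1.89 for the other 4 genes, and the median over all genes was 1.31. The limma fit uses 1 spread per probe set for all systems, so that its intervals are wide for tissue and narrow for culture where the ratio is high.

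The deviations of the 20 culture arrays from their group means fell into 2 sets of genes, which were read from the values and are a description without a test. *Atf4*, *Ddit3*, *Chac1*, *Trib3* and *Asns* varied together, with Pearson's r of 0.61 to 0.91 over their 10 pairs (Spearman's rho 0.48 to 0.89), and r of 0.52 to 0.89 without the 2 arrays farthest from the median of the first gene. *Hspa5*, *Herpud1* and *Dnajb9* varied together with r of 0.76 to 0.81. Between the sets r was -0.31 to 0.28. *Xbp1* went with the second set (0.47 to 0.54, but 0.26 to 0.36 without the 2 farthest arrays) and against the first (-0.50 to -0.24). *Sesn2* was closest to *Hspa5* (0.62), but this rested on few arrays. Without the 2 farthest arrays it was 0.32, beside 0.31 with *Ddit3*. By region it was 0.72 in hippocampal and 0.55 in cortical cultures, and -0.59 and 0.05 without those arrays. In the 22 tissue arrays the same pairs gave -0.14 to 0.43 for the first set and -0.27 to 0.15 for the second. The points share litters and cultures, and all values of an array share its normalization. The first principal component of all genes' deviations in these arrays held 37.6% of the variance, and the mean deviation of *Hspa5*, *Herpud1*, *Dnajb9* and *Xbp1* correlated with it at an absolute r of 0.76, against 0.24 for the ATF4 targets *Trib3*, *Asns*, *Chac1*, *Sesn2* and *Ddit3*.

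**Figure D3:**
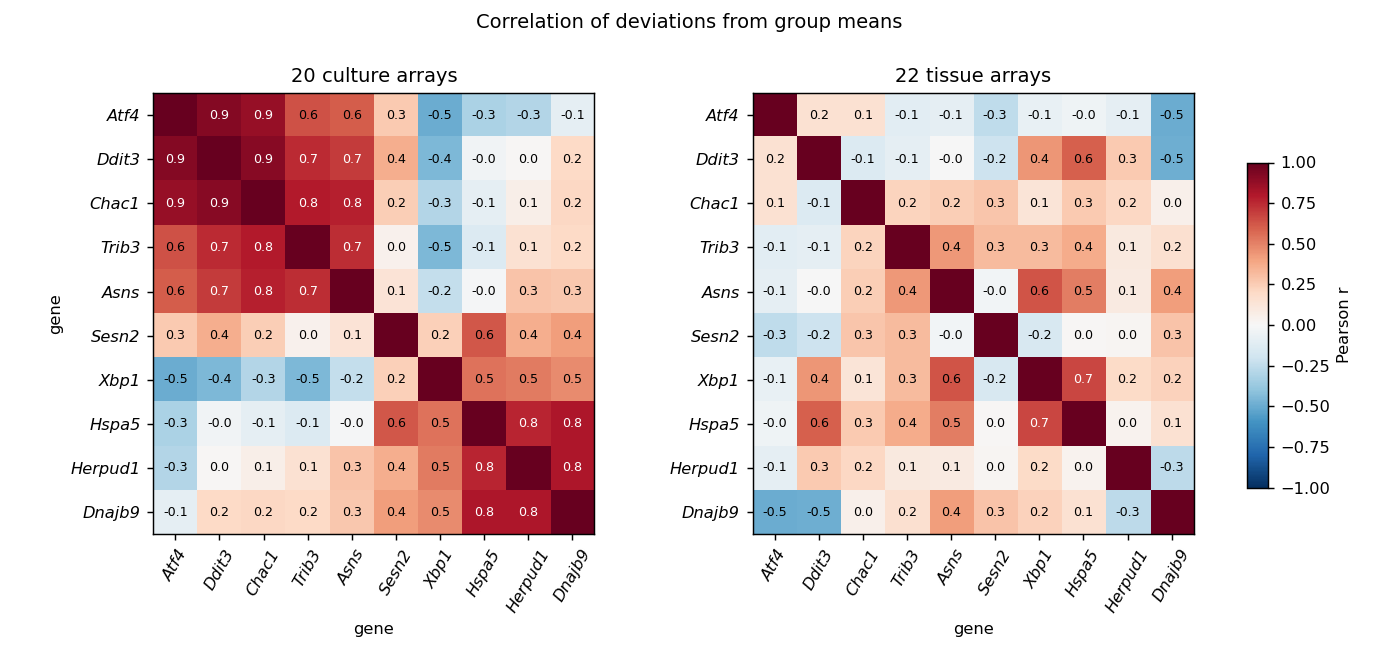
Pearson's r between the deviations of each pair of the 10 genes from their group means, in the 20 culture arrays (left) and the 22 tissue arrays (right), on a colour scale from -1 to 1. In culture, *Atf4*, *Ddit3*, *Chac1*, *Trib3* and *Asns* form a block of 0.61 to 0.91, and *Hspa5*, *Herpud1* and *Dnajb9* another of 0.76 to 0.81, and neither block is seen in tissue.

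By region, in the 10 hippocampal cultures r within the first set was 0.49 to 0.97, but 0.01 to 0.95 without the 2 farthest arrays, within the second it was 0.36 to 0.80 (0.24 to 0.56 without those), and r between the sets was -0.92 to -0.20. In the 10 cortical cultures r was 0.70 to 0.94 within the first set, 0.83 to 0.93 within the second and -0.20 to 0.50 between them. Over all 20 cultures the mean standardised deviation of the ATF4 targets (*Trib3*, *Asns*, *Chac1*, *Sesn2* and *Ddit3*) went with the oligodendrocyte lineage markers (r = 0.78). That of the ER genes (*Hspa5*, *Herpud1*, *Dnajb9* and *Xbp1*) went against the neuronal markers (r = -0.78). For each mean these were the markers with the largest r in size among all marker lists. The erythroid markers, whose mean lay below background in culture, gave -0.74 with the ER genes. In the 22 tissue arrays the ATF4 targets gave 0.47 with the oligodendrocyte lineage markers, and the ER genes gave 0.60 with the neuronal markers. The part of these cells in the covariation was not tested.

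Of 12621 other genes above background, those whose deviations over all 42 arrays were most like the mean of the ATF4 targets were *Nfil3* (r = 0.84), *Hdac5* (0.82), *Trim66* (0.80), *Mrm1* (0.80) and *Hip1r* (0.78). The likeness of *Nfil3*, a bZIP transcription factor, was seen in culture (0.87) and in tissue (0.68), whereas that of the histone deacetylase *Hdac5* was 0.94 in culture and -0.00 in tissue. Those most like the mean of the ER genes were *Tspan6* (0.90), *Slc35a3* (0.90), *Manea* (0.90), *Tmem168* (0.89) and *Hspa13* (0.89), of which the last is itself on the list of ER chaperones. The likeness of these 5 was 0.94 to 0.96 in culture and 0.17 to 0.48 in tissue.

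Between KO and WT, few of these genes differed. At an unadjusted p under 0.05, which the study used, 1 of 10 genes differed between KO and WT in hippocampal culture, against 9.54% of all genes. In cortical culture 0 of 10 differed against 10.2%, and in the tissues 0 of 10 against 1.54% in hippocampus and 1.66% in cortex. At an adjusted p under 0.05 none of the 10 was called by limma in any system. Of all 18193 genes, 1 and 1 were so called in the hippocampal and cortical cultures, and 3 and 1 in the hippocampal and cortical tissues. The gene called was *Sesn2* in hippocampal culture, with log2 levels of 7.45, 7.12, 7.33, 7.91 and 7.28 in the KO litters 2037, 2038, 2221, 2620 and 4236, and of 7.58, 7.55, 8.45, 8.02 and 7.74 in the WT litters 2236, 2643, 2644, 3569 and NT. All KO arrays but that of litter 2620 lay below all WT arrays. The difference was -0.45 (95% interval -0.77 to -0.13), with an unadjusted p = 0.00752 by limma, an adjusted p = 0.386 and a two-sided p = 0.0714 by an exact permutation test of the 10 arrays, which was added after the call was seen and which the difference did not pass. Without the WT array of litter 2644 it was -0.30 and missed the unadjusted threshold (adjusted p = 0.759). In the same comparison all 4 immature neuron markers (*Dcx*, *Tubb3*, *Neurod6* and *Stmn2*) were higher in KO (median 0.44, unadjusted p under 0.05), with a mean log2 level per array of 11.02 to 11.42 in KO and 10.28 to 11.33 in WT, and their part in the *Sesn2* difference was not tested.

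The second *Sesn2* probe set (1451599_at) gave a difference of -0.11 in the same arrays (adjusted p = 0.893, exact permutation test p = 0.389). In the other systems *Sesn2* differed by -0.16 in cortical culture, by -0.08 in hippocampal tissue and by 0.05 in cortical tissue, none of which passed the threshold. The limma test of the difference between the KO effects in culture and tissue called 0 of the 10 genes in either region, at an adjusted or an unadjusted p under 0.05. Of all 18193 genes it called 0 in either region at an adjusted p, and 833 in hippocampus and 845 in cortex at an unadjusted p. So few genes are called here that 0 of 10 does not set these genes apart. A second *Ddit3* probe set (1443897_at) was lower in KO hippocampal culture by -0.40 and passed the unadjusted threshold (adjusted p = 0.536), whereas the first gave -0.02. For the second *Asns* probe set (1433966_x_at) all 5 KO hippocampal cultures (10.054 to 10.173) lay above all 5 WT ones (9.897 to 10.053). Its difference, 0.12, did not pass the unadjusted threshold, and the ranges of the first *Asns* probe set overlapped. No other probe set of the 22 separated KO from WT in any system, and the share of all probe sets that do was not computed.

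For the other 9 genes in hippocampal culture, each by the probe set that represents it, KO and WT differed by -0.16 to 0.16. Their 95% intervals lay within -0.44 and 0.55. In the other systems all 10 differences lay between -0.16 and 0.15, with intervals within -0.48 and 0.47 for cortical culture, -0.38 and 0.40 for hippocampal tissue and -0.34 and 0.55 for cortical tissue. The widest intervals were those of *Chac1*.

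**Figure D4:**
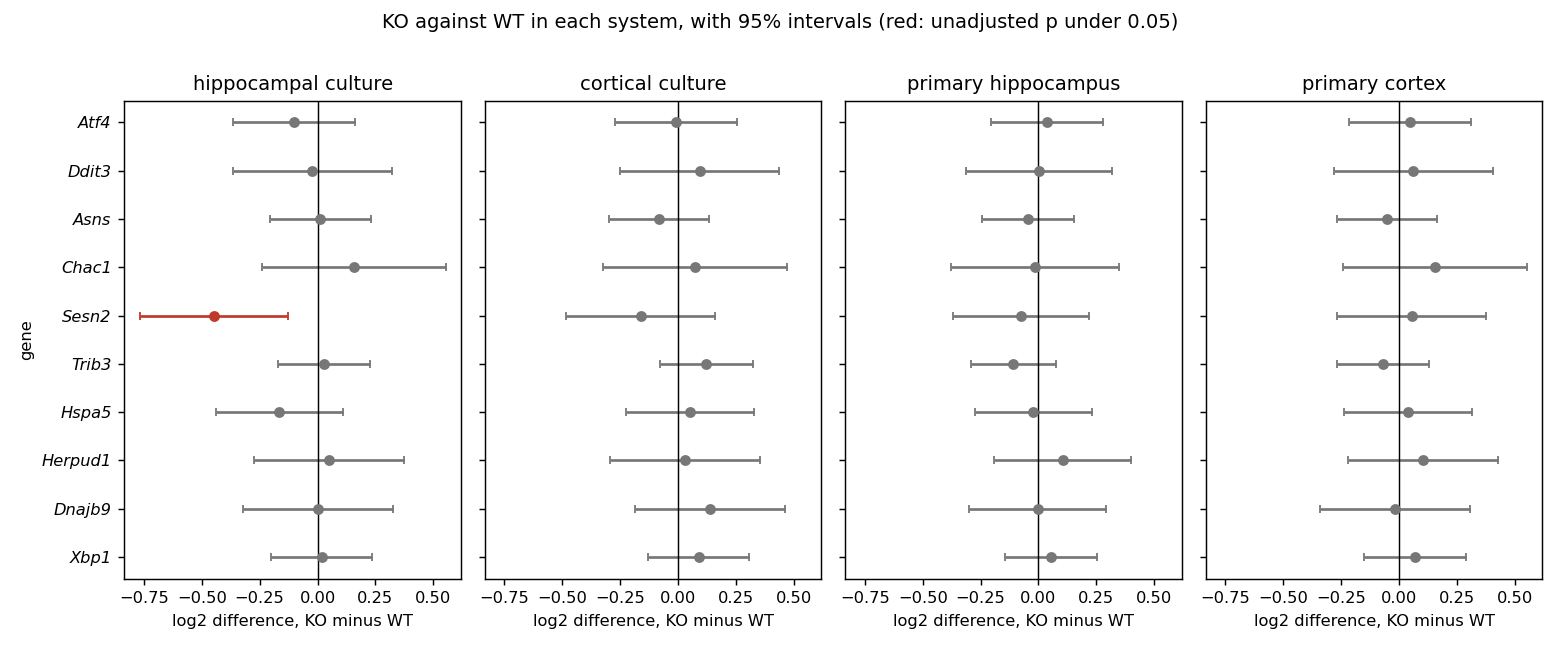
Log2 difference between KO and WT (x axis) for each gene (y axis) in the 4 systems, with the 95% interval from limma, a line at 0 and an unadjusted p under 0.05 in red. Only the interval of *Sesn2* in hippocampal culture, at -0.45, leaves out 0.

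Of the 92 other genes, 3 were higher and 1 lower in KO in hippocampal culture and 2 and 1 in cortical culture, and in the tissues 0 and 1 in hippocampus and 1 and 1 in cortex (unadjusted p under 0.05). The shares of all genes were 6.87% higher and 2.67% lower, 6.17% and 4.05%, 0.594% and 0.945%, and 1.23% and 0.434%, so that 4 and 3 of 92 in the cultures lay below the share of all genes. The eIF2α kinase gene *Eif2ak2*, which encodes PKR, was lower in KO in both tissues, by -0.36 in primary hippocampus and -0.39 in primary cortex (neither passed at an adjusted p), although its KO mean in primary cortex, 4.91, lay below background. *Derl3*, a component of ER-associated degradation, was at -0.22 in cortical culture and at 0.22 in primary cortex, and *Cebpg* was at 0.21 in hippocampal culture.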

How the data were processed

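The authors hybridized 100 ng of RNA per sample to Affymetrix mouse expression arrays and deposited log2 values made with RMA, which corrects the background, quantile-normalizes the arrays and summarises the probes of a set. The set of arrays normalized in 1 run is not given in the sources used here. These log2 values were taken without change. Precision is limited by how many arrays each group has.

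Of 45101 probe sets, 64 controls were left out. Of the rest, 34945 carried 1 gene, 932 several and 9160 none. A gene was represented by its probe set with the highest mean over all arrays. Levels were not compared between probe sets. The background level, 5.16, was the 95th percentile of the mean of 123 probe sets of olfactory and vomeronasal receptors and keratin-associated proteins, and 69.4% of genes lay above it.

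Group means of the 8 groups were fitted to all 42 arrays with limma 3.58.1 (lmFit and eBayes, 34 residual and 3.58 prior degrees of freedom) in R 4.3.3, after the same steps had been tested on simulated data. For KO and WT the threshold was the unadjusted 0.05 that the study's methods use. All other comparisons used Benjamini-Hochberg adjusted p under 0.05 over all probe sets tested, and adjusted p values of KO and WT were over the same probe sets. Culture, tissue and region were compared as means of KO and WT. Promoters were searched with Python 3.11.15, and figures drawn with Matplotlib 3.10.9.

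The mouse ID recurs across systems within a genotype, so it pairs systems and not KO with WT. The study's methods speak of KO and WT pairs prepared on the same day, which the labels do not name, so no such pairing could be fitted. Deviations of the same litter from the group means correlated at 0.18 to 0.48 between the tissues (median 0.33) and at -0.31 to 0.65 between the cultures (median 0.28). Between culture and tissue they correlated at about 0 (medians 0.00 in hippocampus and 0.02 in cortex). Litters were used as separate replicates in each group, and as a random block in an alternative. Other alternatives were the arrays in the fit, array weights, trend and robust eBayes, median centring, a second quantile normalization, a filter on dim probe sets, the probe set per gene, the threshold, and each array left out.

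The 10 genes and all gene lists were chosen with earlier results of these data known. From each list of other genes, at most 3 per direction and comparison with the smallest p above background were eligible to be named. The genes of like pattern were the 5 above background with the highest correlation.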

Additional observations from a re-analysis of the deposited data

Results flagged for a closer look

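*Atf4* held 2 arrays far from the rest of their group. In the KO cortical cultures the array of litter 2038 had a log2 level of 10.23, the lowest of 5, with the nearest at 10.71, and this gap was 0.726 of the range of the group against a critical value of 0.710. In WT primary hippocampus the array of litter NT was at 10.09, the lowest of 6, with the nearest at 10.18 (0.629 of the range, against 0.625). These are 2 of 80 groups tested over the 10 genes, where chance gives about 1 in 20.

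The difference between culture and tissue was not the same in both regions for 4 of the 10 genes, against 32% of all genes. Taken as hippocampus minus cortex it was 0.60 for *Asns*, -0.64 for *Sesn2*, -0.70 for *Chac1* and -0.39 for *Trib3* (limma adjusted p = 2.21e-05, 0.00154, 0.00507 and 0.00178), so that *Asns* ran opposite to the other 3. In each gene with a second probe set, *Asns*, *Sesn2* and *Trib3*, this had the same sign.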

How the results depend on the processing

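In all, 960 log2 differences were recomputed under alternatives other than leaving out an array. Of these, 926 kept their side of the threshold, and kept their direction wherever either value passed it. Among the 926 were 39 whose sign differed while neither value passed. For single arrays left out, these numbers were 2072 of 2100, with 143 among the 2072. Alternatives for the comparison of culture effects between regions were chosen after seeing the data, and the causes of the changes below were not tested. The counts below show only how calls moved between settings. They are given without the share of all genes called at each setting.

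With the probe set of the smallest p per gene, *Atf4* turned to -0.50 in hippocampal culture against tissue and to -0.69 in cortex, and *Hspa5* turned to -0.47 in hippocampus. This also gave 2 genes called between KO and WT in hippocampal culture, with *Ddit3* the second. At an adjusted p the 1 call there became 0. Array weights gave 1 call in cortical culture, *Dnajb9* at 0.36, and without single arrays the counts were 0 to 1 in hippocampal culture (0 without WT litter 2644) and 0 to 1 in cortical culture (1, *Trib3*, without KO litter 2038). With only the tissue arrays in the fit, 5 genes differed between the tissues in place of 3, with *Atf4* (0.10) and *Dnajb9* (-0.15) added. A limit of 2-fold left 4 genes in each region between culture and tissue, and 0 between regions in tissue and 0 in culture. *Hspa5* between the tissues lost its call after median centring (adjusted p = 0.0615) and a second quantile normalization (adjusted p = 0.101).

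With litter as a random replicate block (correlation 0.068), 1, 0, 0 and 0 genes were called between KO and WT in the hippocampal and cortical cultures and in the hippocampal and cortical tissues, 8 and 9 between culture and tissue in hippocampus and cortex, 3 and 4 between the regions in tissue and in culture, and 4 for the difference between the culture effects. The call that the block changed among these was *Hspa5* in hippocampus. The block used 1 correlation for all systems, so it does not model a closer likeness of the same litter between the regions.

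Of the 92 other genes of both responses and the 10 heat shock genes, the calls also moved with the settings. A limit of 2-fold took them from 82 to 15 and from 78 to 20 between culture and tissue in hippocampus and cortex, and from 52 to 2 and from 33 to 2 between the regions in tissue and in culture. Between KO and WT, in the cultures and then the tissues of hippocampus and cortex they were 5, 4, 1 and 2, and came to 10, 11, 3 and 5 with the smallest p per gene. They were 20 in cortical culture and 2 in primary hippocampus with array weights, 2, 1 and 2 in the cultures and primary hippocampus with only the arrays compared, and 0 in each system at an adjusted p.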
